A study of Mus musculus with 38 samples.

Results

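The genes described here encode the proteins of the extracellular matrix and the machinery that binds and cuts it: collagens, laminins, nidogens, fibrillins, fibulins, thrombospondins, fibronectin, tenascin C, Sparc and versican, the integrins that hold cells to them, the matrix metalloproteases (Mmp) that cut them and the tissue inhibitors of those proteases (Timp). They were chosen by symbol, as every gene of these families with a count above 0, without use of any fold change. Of the 118 family genes that the authors listed, 88 had counts, out of 22408 genes with counts among 55385 listed. By role they were 12 basement membrane genes, 6 fibrillar collagens, 19 other collagens, 7 fibre glycoproteins, 7 matricellular genes, 5 integrin alpha and 8 integrin beta chains, 21 proteases and 3 protease inhibitors. The other 30 family genes are listed at 0 in every library, among them Col4a1, Lamc1, Hspg2, Itga5, Itga6, Col1a2, Col3a1 and Timp2.

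The samples were mouse embryonic stem cells of the 129S6/SvEvTac strain, grown on gelatin with serum and leukemia inhibitory factor (LIF), a cytokine that holds them undifferentiated. RNA was sequenced in 38 libraries of 17 groups, in 2 experimental batches. The first batch held 26 libraries of wild-type cells, 2 for each of 13 groups: vehicle (DMSO) over 1 h and over 24 h, BRM014 at 10 uM over 5 times (30 min, then 1, 3, 6 and 24 h), an inactive analog at 10 uM over 1 h and over 24 h, washouts of 30 min or 1 h after 1 h of drug, and washouts of 6 h or 24 h after 24 h of drug. The second batch held 12 libraries, 2 for each of 6 groups: cells labelled wild type, Ino80ko or Snf2hko, each with DMSO or 10 uM BRM014 for 24 h. BRM014 blocks the ATPases Smarca4 (BRG1) and Smarca2 (BRM) that drive SWI/SNF chromatin remodelling, and the names of the other genotypes refer to Ino80 and Snf2h, the motor subunits of the INO80 and ISWI remodellers. No vehicle was given for 30 min, 3 h or 6 h, no vehicle was washed, and a drug dose is not labelled for washouts. They do not say how the knockout lines were made or whether each is 1 clone. Replicates are called biological without saying whether they came from separate cultures, so the spread that the p-values rest on may be partly technical.

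Stem cells deposit a basement membrane, a sheet in which laminin trimers and a type IV collagen network are tied together by nidogens. The extraembryonic endoderm, one of the first cell types to leave the stem cell state, makes such sheets in quantity. Integrins are pairs of an alpha and a beta chain, and Itgb1 is the beta chain shared by the main laminin, collagen and fibronectin receptors. Metalloproteases cut these proteins, and Timp proteins block the proteases.

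Libraries held 19.3 to 23.1 M counts (M, 1e6) in the first batch and 21.9 to 44.5 M in the second, and the 88 genes took 0.457% to 2.04% of them. Of 10 stem cell markers all but Tfcp2l1, which is listed at 0, had counts, and they summed to 4960 to 7470 CPM (counts scaled to a total of 1e6) in every group. Ino80 read 128 and 122 CPM in the Ino80ko vehicle libraries, 130 and 125 in those labelled Snf2hko and 174 and 175 in wild type. Which exons were deleted is not given in the sources used here, and Smarca5, which encodes Snf2h, is listed at 0, so the transcripts check neither genotype label.

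In vehicle-treated wild-type cells at 24 h, 4 of the 5 highest of the 88 genes with counts belonged to the basement membrane. Family genes listed at 0 have no place in this ranking. In CPM (counts per 1e6) per kilobase of exon, Sparc, a collagen-binding secreted protein, stood highest at 255 ± 27.3 (SD, n = 4 libraries of both batches). It was followed by the laminin alpha chain Lama1 (185 ± 50.9), Nid2 (139.6 ± 6.23), Col18a1 (113 ± 8.17) and the laminin beta chain Lamb1 (112 ± 24.3). Nid2 lay within the spread of Lama1, and Lamb1 within that of Col18a1, while Nid2 stood above Col18a1 by more than either SD. Itgb1 (98.3 ± 6.48), Col4a2 (68.6 ± 16.7), Fn1 (61.9 ± 6.79), Nid1 (36.7 ± 4.20), Itga3 (30.0 ± 3.45), Timp1 (27.9 ± 2.04) and Itgb5 (22.0 ± 1.05) came next, of which Col4a2 and Fn1 overlapped within their SD. The highest proteases were Mmp11 (14.9 ± 1.98) and the membrane-bound Mmp14 (11.0 ± 1.58). Most of the other collagens and proteases were scarce. Of the 88 genes 70 could be tested in the fit of both batches at 24 h, 73 in the first batch and 78 in the second. The 10 that entered no test were Col4a4, Col10a1, Col28a1 and 7 proteases of 1 cluster on chromosome 9, Mmp1a, Mmp1b, Mmp3, Mmp10, Mmp13, Mmp20 and Mmp27.

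Family genes with and without counts differed in where they lie. Of the 30 family genes listed at 0, 28 overlap another gene on the same strand in the GENCODE M21 annotation of GRCm38, against 0 of the 88 with counts. Whether a listed 0 stands for absent RNA was not tested. Col4a1 and Col4a2 start head to head on chromosome 8 and overlap by 21 bases, but only Col4a2 has counts. Of the 88, 27 share exon sequence with a gene on the opposite strand, Col4a2, Tnc, Fbn2, Thbs1, Thbs3, Timp3, Timp4, Nid2, Fn1, Itgb4, Mmp11, Mmp28 and Col9a3 among them. Of the 30 listed at 0, 7 share exon sequence with an antisense gene. The kit was stranded per the labels, but how counting treated strand is not stated. Whether reads of antisense partners entered the counts of the 27 genes was not tested.

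Promoter sequences are shown for 5 genes that the results turn on: 3 matrix genes that rose together after the short washouts and in Snf2hko (Lamb1, Col4a2, Sparc), and Thbs2 and Itgb1, the largest rise and the most abundant rise under 24 h of BRM014. Each runs 5′ to 3′ from 250 bases before to 50 bases after a RefSeq start, in build GRCm38.p6. Capitals mark the TATA box (TATAAA), the CAAT box (CCAAT), the GC box (GGGCGG) or a GATA factor motif (AGATAA) on either strand.
Lamb1, chr12:31265043-31265342, plus strand: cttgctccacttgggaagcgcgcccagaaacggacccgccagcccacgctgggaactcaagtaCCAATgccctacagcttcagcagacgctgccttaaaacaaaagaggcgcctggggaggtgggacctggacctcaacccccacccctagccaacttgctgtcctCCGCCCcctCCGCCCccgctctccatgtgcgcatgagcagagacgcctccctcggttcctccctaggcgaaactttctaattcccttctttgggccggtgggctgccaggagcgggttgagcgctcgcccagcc
Col4a2, chr8:11312555-11312854, plus strand: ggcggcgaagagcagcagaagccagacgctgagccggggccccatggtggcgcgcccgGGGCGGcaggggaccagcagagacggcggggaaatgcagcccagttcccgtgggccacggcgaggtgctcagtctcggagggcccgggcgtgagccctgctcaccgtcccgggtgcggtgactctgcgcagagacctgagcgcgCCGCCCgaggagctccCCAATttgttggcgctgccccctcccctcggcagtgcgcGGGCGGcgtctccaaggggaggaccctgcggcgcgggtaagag
Sparc, chr11:55420031-55420330, minus strand: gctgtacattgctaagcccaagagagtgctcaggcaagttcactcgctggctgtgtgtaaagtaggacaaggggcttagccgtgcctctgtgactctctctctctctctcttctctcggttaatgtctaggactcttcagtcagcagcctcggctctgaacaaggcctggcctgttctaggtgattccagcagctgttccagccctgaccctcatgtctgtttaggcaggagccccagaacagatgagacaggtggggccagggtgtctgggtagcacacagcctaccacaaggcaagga
Thbs2, chr17:14694213-14694512, minus strand: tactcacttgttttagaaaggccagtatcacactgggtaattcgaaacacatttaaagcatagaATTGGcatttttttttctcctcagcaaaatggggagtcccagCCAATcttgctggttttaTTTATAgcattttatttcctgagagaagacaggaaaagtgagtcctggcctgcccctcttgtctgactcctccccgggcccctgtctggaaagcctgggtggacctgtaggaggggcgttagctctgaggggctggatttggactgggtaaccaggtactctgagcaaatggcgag
Itgb1, chr8:128685404-128685703, plus strand: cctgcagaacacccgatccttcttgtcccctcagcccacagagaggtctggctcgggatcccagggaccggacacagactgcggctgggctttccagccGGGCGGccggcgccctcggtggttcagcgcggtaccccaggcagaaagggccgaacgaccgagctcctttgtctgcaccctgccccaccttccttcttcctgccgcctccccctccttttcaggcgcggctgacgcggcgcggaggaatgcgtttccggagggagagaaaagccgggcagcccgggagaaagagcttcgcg
The Col4a2 window also covers the annotated start of Col4a1. The Lamb1 and Col4a2 windows both hold a CAAT box and a GC box, and the Itgb1 window holds a GC box. The Sparc window holds none of the 4 motifs, and of the 5 windows that of Thbs2 has a TATA box, on the opposite strand, beside CAAT boxes on both strands. RefSeq windows were matched for 66 of the 88 genes (76 windows). The GC box was in 55.3% of the windows of these genes and 35.7% of all 32851 windows, and the TATA box in 19.7% (15 of 76) and 13.6%. The CAAT box was in 26.3% against 37.4% and the GATA motif in 5.26% against 11.2%. Beside these, TGANTCA, the palindromic AP-1 motif, was in 13.2% against 7.81%, and GGAATG, a TEAD motif, in 9.21% against 14.7%. Most windows with TGANTCA came from the protease cluster on chromosome 9. There Mmp13, Mmp12, Mmp1b, Mmp3, Mmp1a, Mmp10 and Mmp20 each had a window with both TGANTCA and the TATA box. The TATA share given above therefore also rests in part on this cluster. All of these but Mmp12 were too scarce to enter any test. Outside the cluster TGANTCA was in windows of Itga9, Col6a1 and Itga3 only. Both strands were searched, and none of the 6 motifs contains another. The median CpG observed-to-expected ratio was 0.45 in these windows and 0.384 in all.

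The first comparison asks which matrix genes changed after 24 h of SWI/SNF inhibition, in wild-type cells of both batches. BRM014 raised the thrombospondin Thbs2, the microfibril gene Fbn2, the receptor chain Itgb1 and the laminin chain Lamb2, and lowered 6 of 12 matrix proteases, the integrin alpha chain Itga3, the basement membrane collagen Col18a1 and the protease inhibitor Timp3. Of 70 genes tested 19 were called higher and 26 lower (adjusted p under 0.05 in edgeR's quasi-likelihood test), 64.3% of them, where 49.6% of all genes tested were called. The median log2 change was -0.09, against 0.00 over all genes.

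Thbs2, a matricellular protein that limits angiogenesis, read 0.272, 0.519, 1.93 and 1.06 CPM in the 4 vehicle libraries, first batch first, and 12.6, 14.2, 8.97 and 8.91 CPM with BRM014. No BRM014 library came near a vehicle library, and the log2 change was 3.39 ± 0.43 (SE; adjusted p = 0.00031, edgeR). The rise differed in size between batches (-2.49 ± 0.44 for the second minus the first, adjusted p = 0.00335). Fbn2, a fibrillin of elastic microfibrils, went from 4.40, 5.97, 2.90 and 4.60 to 30.0, 26.4, 15.9 and 14.3 CPM (2.22 ± 0.15, adjusted p = 8.15e-09, edgeR). Its lowest treated library was above the highest vehicle library in both batches. Itgb1 is the abundant one among the rises. It went from 375, 438, 393 and 398 to 1149.6, 1132, 990.2 and 1005 CPM (1.41 ± 0.06, adjusted p = 2.64e-11, edgeR), again without overlap. Lamb2, the laminin beta chain of mature and synaptic membranes, rose by 1.15 ± 0.07 and the cartilage collagens Col2a1 and Col9a3 rose by 1.17 ± 0.12 and 0.97 ± 0.18.

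Among the falls, Col18a1, whose C-terminal fragment is endostatin, read 855, 798, 808 and 717 CPM with vehicle and 331, 351, 324 and 299.8 with BRM014 (-1.28 ± 0.06, adjusted p = 6.01e-11, edgeR). Every treated library lay far below every vehicle library. Itga3, the partner of Itgb1 in a laminin receptor, fell from 154, 156, 195 and 179 to 74.4, 79.4, 66.7 and 62.9 CPM (-1.27 ± 0.09). Timp3, an inhibitor that stays bound to the matrix, fell from 25.8, 31.6, 22.5 and 23.5 to 10.2, 11.1, 11.1 and 10.5 CPM (-1.25 ± 0.11). Groups did not overlap for either gene. Of 12 proteases tested 6 were lower (Mmp28 -1.64, Mmp24 -1.42, Mmp23 -1.39, the gelatinase Mmp2 -1.27, Mmp11 -0.90 and Mmp14 -0.61) and 1 was higher, where 24.8% of all genes tested were called in each direction. Collagens went both ways. Col6a5 (-1.85 ± 0.18), the membrane-spanning Col13a1 (-1.45 ± 0.15), Col1a1 (-1.42 ± 0.28) and Col6a4 (-1.11 ± 0.17) fell, while 4 of 15 non-fibrillar collagens and 1 of 6 fibrillar ones were higher.

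The main sheet genes gave small values. Lama1 read 0.23 ± 0.14 (adjusted p = 0.204, edgeR), Col4a2 -0.15 ± 0.08 (adjusted p = 0.144), Sparc -0.13 ± 0.09 (adjusted p = 0.258) and Tnc, which stayed under 1 CPM in every one of these libraries, -0.04 ± 0.44 (adjusted p = 0.951). Lamb1 rose by 0.27 ± 0.10 (adjusted p = 0.0377), a call lost without any 1 of vehicle replicates 1, 3 and 4 or BRM014 replicates 3 and 4 (adjusted p = 0.0887 to 0.131). The change in Lama1, Lamb1 and Sparc differed between batches by 0.64 ± 0.15, 0.53 ± 0.12 and 0.51 ± 0.11 (second minus first; adjusted p = 0.0327, 0.0218 and 0.0139). The vehicle libraries of the first batch stood higher, with Lama1 at 1861 and 2455 CPM against 1463 and 1371. The batch difference was called for 10 of the 70 genes (3.46% of all genes), and for 2 to 5 without any 1 of the 4 BRM014 libraries or of the 2 second-batch vehicle libraries. Summed endoderm markers moved alike: 488 to 582 CPM with vehicle and 397 to 444 with BRM014 in the first batch, 285 to 290 and 321 to 346 in the second. Their part in the batch difference was not tested. The nidogens that tie laminin to collagen were lower, Nid1 by -0.82 ± 0.08 and Nid2 by -0.33 ± 0.06. With the batches fitted apart, 44 of 73 genes were called in the first (45.8% of all genes) and 40 of 78 in the second (42.3% of all genes), and the 32 called in both, 72.7% of the first list and 80.0% of the second, had the same direction. The same overlap was not counted over all genes, so whether it is particular to matrix genes was not tested. Markers of other cell types were scarce, but several fell with BRM014: 5 of 8 mesenchyme markers (1 higher; summed level 53.8 to 70.1 CPM with vehicle and 26.5 to 29.4 with BRM014, Prrx1, Twist2, Zeb1 and Zeb2 listed at 0) and 4 of 7 endothelium markers (1 higher; 134 to 164 and 73.3 to 81.3 CPM, Eng and Emcn listed at 0). Of 6 trophoblast markers 2 were higher and 3 lower. Their part in the matrix result was not tested.

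**Figure D1:**
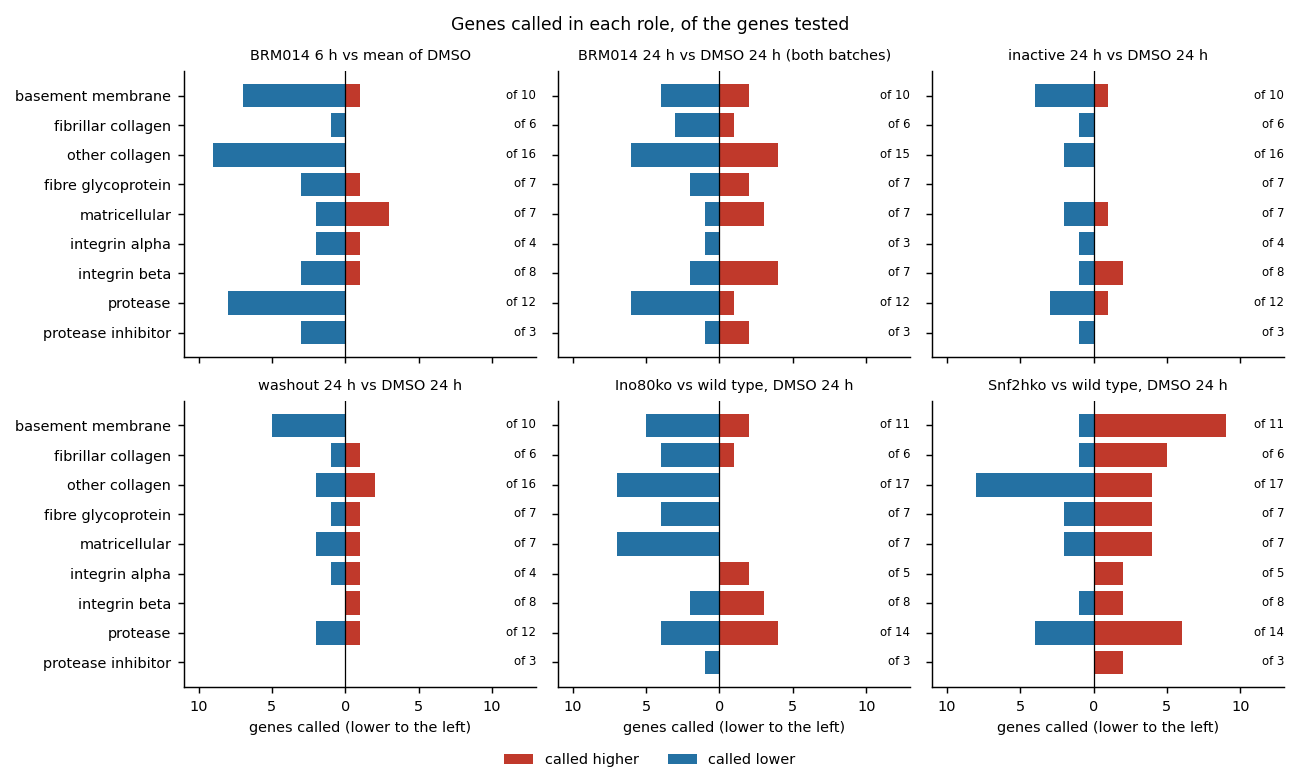
Number of genes called higher (red, right of 0) and lower (blue, left of 0) in each role, of the number tested at the right, in 6 comparisons (adjusted p under 0.05, edgeR). At 6 h of BRM014 the proteases had 8 lower and 0 higher, and in Snf2hko cells the basement membrane genes had 9 higher and 1 lower.

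The time course asks how early the matrix genes responded. At 30 min no gene was called, among these 73 (1 at an unadjusted p under 0.05) or among all 12517 tested (0%). At 1 h, when 0.599% of all genes were called, the set held 1 call, the collagenase Mmp14, which read 64.2 and 58.9 CPM against 78.4 and 77.5 (-0.35 ± 0.07, adjusted p = 0.00668, edgeR). No gene was called without either vehicle library, without BRM014 replicate 2 or with only these 2 groups fitted. At 3 h, 3 genes were higher and 23 lower than the mean of both vehicle times, beside 31.2% of all genes called, and at 6 h 7 were higher and 38 lower, beside 48.4%. Without 1 of the BRM014 3 h libraries (replicate 1) 14 genes were called at 3 h. Of all genes 24.9% were higher and 23.5% lower at 6 h, with a median of 0.00, while the median of the 73 was -0.48.

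Proteases were among the early falls. At 6 h 8 of 12 were lower and 0 higher. Mmp28, epilysin, read 8.44 and 10.7 CPM with vehicle for 1 h, 6.30 and 6.80 with vehicle for 24 h, 3.87 and 3.16 at 3 h of BRM014 and 2.06 and 1.32 at 6 h. The libraries of 3 h and 6 h lay below all vehicle libraries (3 h -1.17 ± 0.15 and 6 h -2.19 ± 0.17, adjusted p = 8.29e-07 and 2.39e-11, edgeR). Mmp23 fell at 3 h by -1.67 ± 0.27 and Mmp11 by -0.81 ± 0.08, and at 6 h Mmp11, Mmp2, Mmp9 and Mmp14 stood at -1.26, -1.19, -1.14 and -0.94. The vehicle level of Mmp2 rose over 24 h (1.36 ± 0.15), so its value at 6 h depends on which vehicle it is set against. All 3 inhibitors were lower at 6 h as well. Timp3 fell by -1.07 ± 0.10 and Timp1 by -0.46 ± 0.11. Timp4 had 0 counts in both 6 h libraries against 14 in the 4 vehicle libraries, at least 2.45-fold lower when the group is set at a floor of 3 counts. The exact 95% interval of the counts alone starts at 1.74-fold lower.

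Of 10 basement membrane genes 7 were lower and 1 higher at 6 h, and of 16 other collagens 9 were lower and 0 higher. Markers of other cell types were also called lower at 6 h, 7 of 8 for endothelium (0 higher; summed level 62.6 to 65.1 CPM against 155 to 200 with vehicle), 4 of 8 for mesenchyme (1 higher; 40.1 to 41.1 against 56.9 to 72.5), 3 of 6 for trophoblast (1 higher; 30.3 to 30.5 against 62.2 to 72.0, Gata3 listed at 0) and 5 of 11 for endoderm (2 higher; 427 to 437 against 486 to 582). The part of these markers in the matrix result was not tested. Itga3 went from 298 and 288 CPM (vehicle 1 h) and 154 and 156 CPM (vehicle 24 h) to 186 and 192 at 3 h and 66.9 and 73.8 at 6 h (-1.58 ± 0.06, adjusted p = 8.96e-18, edgeR). Its vehicle level itself fell over 24 h (-0.93 ± 0.06), so the 6 h value depends on which vehicle it is set against, though it lay below both. Vehicle libraries of 24 h and 1 h differed in 14 of the 73 genes (7 higher, 7 lower; 18.5% of all genes), in 8 and 6 of them without 1 or the other of the vehicle 1 h libraries and in 7 with only these 2 groups fitted. Mmp2 rose in vehicle from 6.27 and 5.80 to 14.8 and 16.5 CPM (1.36 ± 0.15) and Thbs2 fell by -1.89 ± 0.37.

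Itgb1 rose step by step, from 394 and 389 CPM with vehicle for 1 h to 565 and 582 at 3 h, 734 and 679 at 6 h and 1149.6 and 1132 at 24 h of BRM014. Each step was above all 4 first-batch vehicle libraries (3 h 0.53 ± 0.05, 6 h 0.85 ± 0.05). Thbs1 and Thbs2 were the other genes called higher at 3 h, by 0.60 ± 0.07 and 1.45 ± 0.26, and Fbn2 (1.07 ± 0.16), Lamb2 (0.44 ± 0.07) and the proteoglycan Vcan (0.45 ± 0.08) joined them at 6 h. The vehicle level of Thbs2 fell over 24 h (-1.89 ± 0.37), so its value at 3 h depends on which vehicle it is set against. Lamb1, Col2a1, Col9a3, Col6a6, Timp1 and Timp4 were called lower at 6 h and higher at 24 h in the fit of both batches. Of these Lamb1 was not called at 24 h in the first batch alone, the batch that holds the 6 h libraries. Col2a1 read 3.13 and 4.92 CPM at 6 h and 17.6 and 18.4 at 24 h, beside 4.89, 4.94, 6.80 and 6.90 with vehicle.

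**Figure D2:**
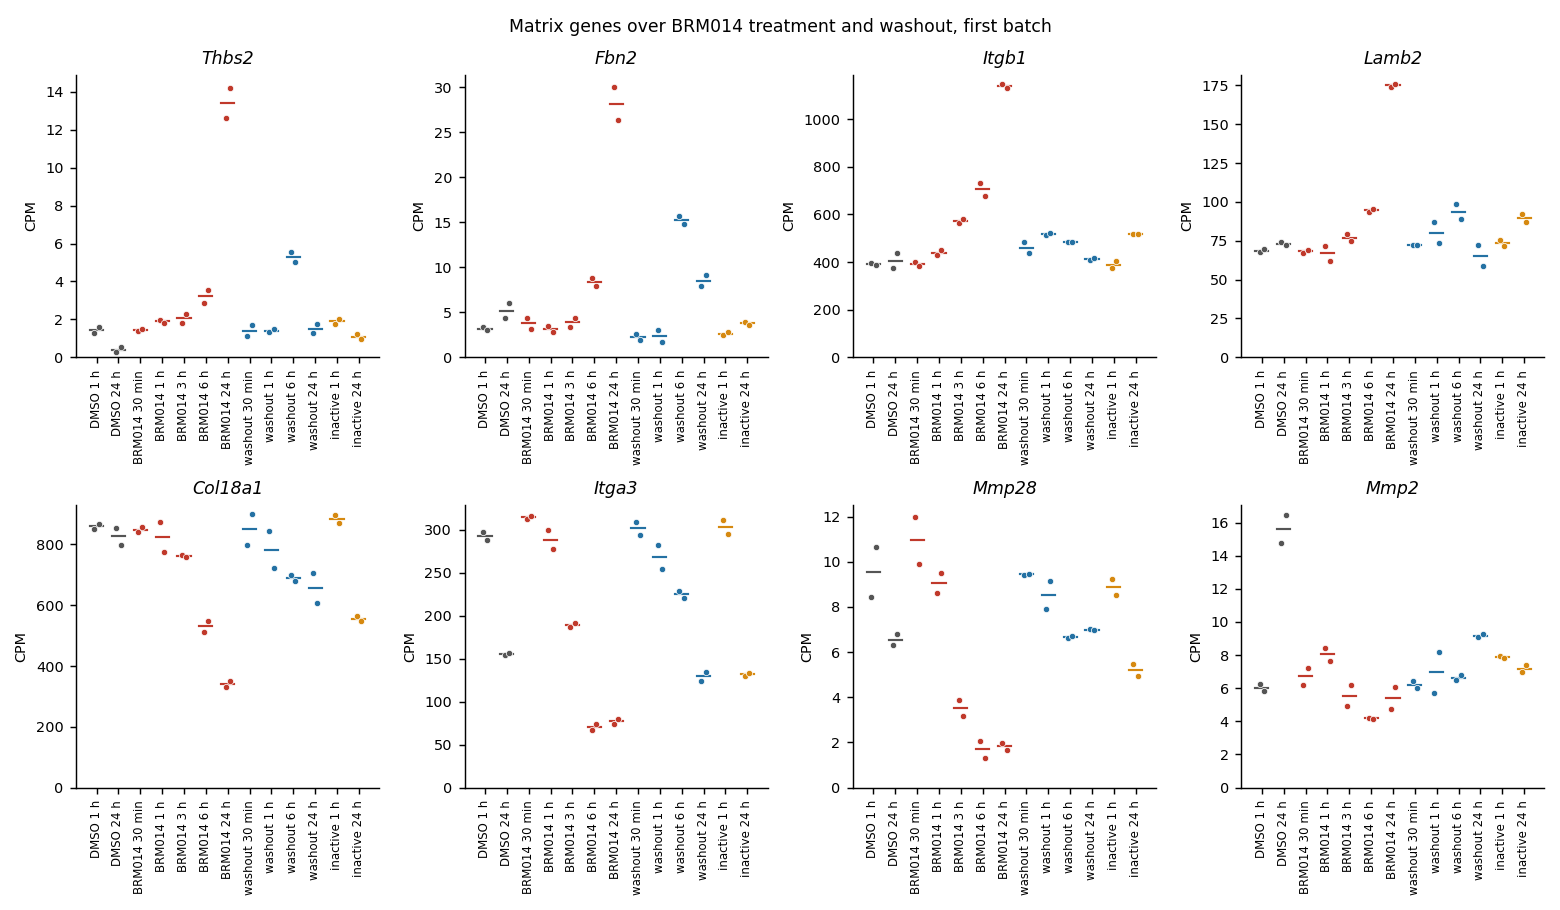
CPM (vertical axis, linear, from 0) of 8 genes in each first-batch library (dots) with the group mean (bars): vehicle grey, BRM014 red, washout blue, inactive analog orange. Itgb1 climbs to 1149.6 and 1132 CPM at 24 h of BRM014 and Mmp28 drops to 2.06 and 1.32 CPM by 6 h, and after 24 h of washout both stand near vehicle.

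The inactive analog, a control compound given at the same 10 uM, was compared with vehicle and with BRM014 at 1 h and 24 h. At 1 h no gene of the set was called for the analog against vehicle (0 of 73, 5 at an unadjusted p under 0.05; 0.184% of all genes in edgeR) or for BRM014 against the analog (0 of 73, 6 at an unadjusted p under 0.05; 0.16% of all genes). The 95% interval of the difference between the compounds at 1 h had a median half-width of 0.27 on the log2 scale over the 53 better-expressed genes, and for 50 of them it stayed within 2-fold.

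At 24 h the compounds differed in 40 of 73 genes, 18 higher and 22 lower with BRM014, beside 35.4% of all genes. Itgb1 was 1.14 ± 0.06 higher with BRM014, Fbn2 2.89 ± 0.18, Thbs2 3.62 ± 0.22 and Col2a1 1.77 ± 0.18, and Mmp28, Col6a5, Mmp23 and Mmp11 were lower by -1.50, -1.46, -1.41 and -1.37. The intervals of 31 of the 53 better-expressed genes lay within 2-fold. The p-values of these 2 compound comparisons were adjusted over all genes within each.

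The analog was not without change itself at 24 h: 5 genes were higher and 15 lower than with vehicle, beside 18.4% of all genes, with a median of -0.20 against -0.01. Mmp2 read 6.96 and 7.39 CPM with the analog, 4.73 and 6.10 with BRM014 and 14.8 and 16.5 with vehicle (analog -1.12 ± 0.14, adjusted p = 1.80e-06, edgeR). Both compounds left Mmp2 near the level of the vehicle 1 h libraries. Col18a1 fell to 564 and 547 CPM (-0.57 ± 0.07) and Timp3 to 18.7 and 19.8 (-0.58 ± 0.11), between the vehicle and BRM014 libraries. Itgb1 (516 and 519 CPM, 0.35 ± 0.06) and Itgb5 (114 and 109 CPM, 0.46 ± 0.07) rose, and Mmp11 moved up (0.40 ± 0.08) where BRM014 moved it down. Thbs2 and Lamb2, which BRM014 also raised, were the remaining genes called higher with the analog. Tnc had 4 counts over both analog libraries against 26 with vehicle, a ratio of 0.143 (exact 95% interval 0.0364 to 0.413, counting error only). The count of 20 calls was 11 and 13 without 1 or the other analog library and 10 with only these 2 groups fitted, and the calls of Col4a2, Lamb1, Lamb2, Mmp24, Thbs2 and Tnc were each lost in 2 or more of the fits that left out 1 library. The summed endoderm markers read 341 and 345 CPM with the analog and 488 and 582 with vehicle, and 6 of 11 were called lower. Stem cell markers summed to 6890 to 7030 CPM against 5800 to 5990, with 4 of 9 higher. Their part in the result was not tested.

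The washouts ask how far the levels returned after the drug was removed. After 24 h of BRM014 and 24 h without it, 30 genes were higher and 16 lower than at the end of treatment (50.4% of all genes called). The 4 leading rises came down: Itgb1 read 409 and 418 CPM, Lamb2 72.5 and 58.4, Fbn2 7.87 and 9.09 and Thbs2 1.25 and 1.75. Itgb1 and Lamb2 then lay within or near the vehicle libraries of 24 h (0.03 ± 0.06, adjusted p = 0.817, and -0.16 ± 0.09, adjusted p = 0.227, edgeR), while Fbn2 and Thbs2 were still higher (0.72 ± 0.19 and 1.95 ± 0.37). The vehicle level of Thbs2 fell over 24 h (-1.89 ± 0.37), so its value after washout depends on which vehicle it is set against. Its washout libraries lay within the range of the second-batch vehicle libraries of 24 h. Mmp28 and Timp3 had returned to 7.02 and 6.97 CPM and 25.6 and 30.0 CPM (0.10 ± 0.16 and -0.04 ± 0.11 against vehicle). Against vehicle 8 genes were higher and 14 lower, beside 17.4% of all genes, 13 were called without replicate 2 of the vehicle or without replicate 1 of the washout, and 8 with only these 2 groups fitted. Of the 14, 5 were basement membrane genes: Col4a2 (-0.42 ± 0.07), Col18a1 (-0.33), Nid1 (-0.30), Lama1 (-0.27) and Nid2 (-0.26). In the same comparison 5 of 11 endoderm markers were lower and 0 higher (summed level 375 to 393 CPM against 488 to 582 with vehicle), and 3 of 9 stem cell markers were higher and 0 lower (6410 to 6660 against 5800 to 5990 CPM). Their part in the result was not tested. Mmp2 stood at 9.07 and 9.27 CPM, between the BRM014 and vehicle libraries (-0.76 ± 0.14).

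At 6 h of washout 34 genes were higher and 7 lower than at the end of treatment (48.7% of all genes), and several stood above the vehicle level. Itga9, an integrin chain that binds tenascin C, read 74.2 and 74.8 CPM against 30.2 and 35.2 with vehicle and 24.4 and 24.2 at the end of treatment (1.19 ± 0.10 against vehicle, adjusted p = 4.16e-10, edgeR). Both washout libraries stood above every other first-batch library. The gelatinase Mmp9 read 14.097 and 12.9 CPM against 3.67 and 3.22 with vehicle (1.97 ± 0.18) and 2.39 and 2.49 at the end of treatment. The membrane protease Mmp25 (15.9 and 16.2 against 5.49 and 5.09 CPM, 1.60 ± 0.15) and Col2a1 (28.8 and 25.4 against 6.80 and 6.90 CPM, 1.99 ± 0.17) were already above vehicle at the end of treatment, at 9.32 and 10.2 CPM and at 17.6 and 18.4 CPM. None of these groups overlapped. Of these 4 genes Mmp9 and Itga9 were still higher than vehicle after 24 h of washout, by 1.08 ± 0.19 and 0.39 ± 0.11. In all, 24 genes were above and 9 below vehicle at 6 h of washout, beside 39.8% of all genes. These comparisons share the vehicle libraries with the drug comparison at 24 h, and no washed vehicle is there to set them against.

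The short washouts gave a different set. After 1 h of BRM014, in which Mmp14 alone had been called, 30 min without drug raised Lama1, Lamb1, Col4a2, Sparc, Thbs1 and Timp3 (6 higher, 0 lower of 73, beside 5.9% of all genes), and 1 h without it raised these and Itgb1 and Col1a1 and lowered Mmp25 (8 higher, 1 lower, beside 3.98% of all genes). Lama1 read 1929 and 1912 CPM at 1 h of BRM014, 3186 and 2994 after the 30 min washout and 3276 and 3114 after the 1 h washout (0.67 ± 0.09 and 0.73 ± 0.09, adjusted p = 0.00011 and 2.49e-05, edgeR). Lamb1 went from 1163 and 1163 to 1745 and 1553 and then to 1855 and 1805 CPM, and Col4a2 from 536 and 532 to 772 and 760.3 and then to 861 and 815. These 4 washout libraries were above every other first-batch library for all 3 genes. Thbs1 rose by 0.51 ± 0.08 and 0.73 ± 0.08 and Sparc by 0.44 ± 0.06 and 0.51 ± 0.06. Set against vehicle for 1 h in place of BRM014, an alternative chosen after seeing the data, 7 and 16 genes were called (5.36% and 8.1% of all genes), with Lama1, Lamb1, Col4a2, Sparc and Thbs1 among the rises at 30 min.

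Endoderm markers moved with them. The summed level of the 15 markers, of which Pdgfra, Hnf4a and Thbd are listed at 0, was 443 to 456 CPM at 1 h of BRM014, 633 to 655 after the 30 min washout and 702 to 737 after the 1 h washout, beside 486 to 504 with vehicle for 1 h. Of 11 tested 6 and 8 were higher and 0 lower. Stem cell markers summed to 5420 to 5540 CPM before and 5400 to 5860 after, with 0 of 9 called. In RNA from whole cultures, more cells of a type and more RNA per cell cannot be told apart, and the part of these markers in the result was not tested.

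**Figure D3:**
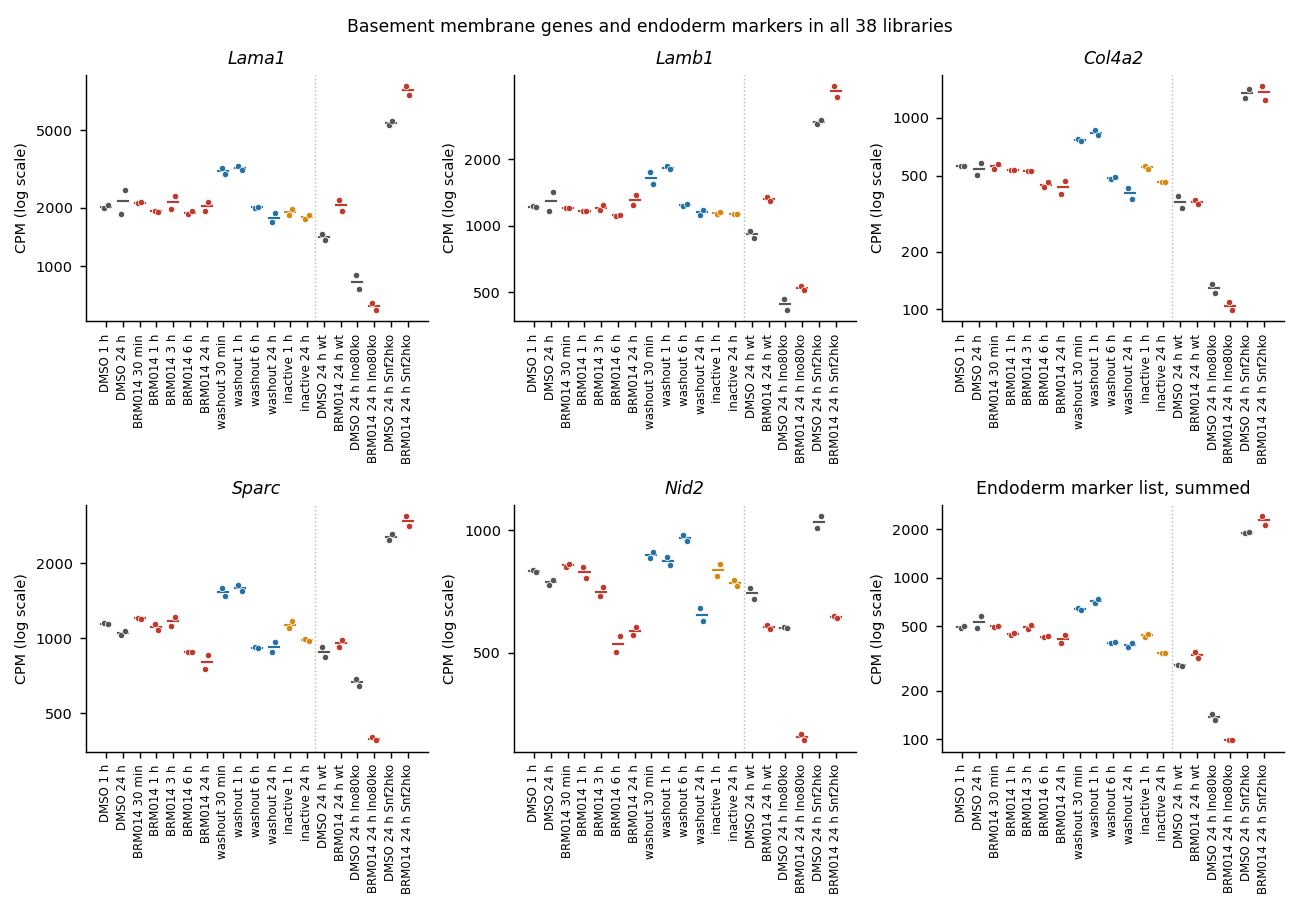
CPM (vertical axes, log scale) of 5 matrix genes and of the summed endoderm marker list in all 38 libraries (dots; bars are group means; grey vehicle, red BRM014, blue washout, orange inactive analog). The dotted line separates the batches. Lama1 stands at 2994 to 3276 CPM in the 4 short-washout libraries and at 5333 and 5568 CPM in Snf2hko vehicle libraries, and the marker sum is high in the same libraries.

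The genotype comparison, with vehicle for 24 h in the second batch, asks how matrix genes stood in lines named for the loss of another remodeller. In Snf2hko 38 genes were higher and 19 lower of 78 (56.5% of all genes called), with a median of 0.47 against 0.00 over all genes. In Ino80ko 12 were higher and 34 lower (45% of all genes), with a median of -0.37 against 0.00.

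Of 11 basement membrane genes 9 were higher and 1 lower in Snf2hko, and 2 were higher and 5 lower in Ino80ko. Lama1 read 1463 and 1371 CPM in wild type, 5333 and 5568 in Snf2hko and 903 and 765 in Ino80ko (1.94 ± 0.09 and -0.76 ± 0.09, adjusted p = 1.28e-12 and 6.95e-07, edgeR). Col4a2 read 391 and 338, 1276 and 1411, and 136 and 122 CPM in the same order (1.88 ± 0.09 and -1.50 ± 0.09). Lamb1 read 950.3 and 885, 2898 and 3012, and 467 and 416 CPM (1.68 ± 0.08 and -1.05 ± 0.07). The 3 genotypes did not overlap for any of these genes. Lamb2 was higher in both (1.35 ± 0.08 and 0.67 ± 0.08). Col18a1 was lower in both (-1.11 ± 0.07 and -0.35 ± 0.07), as were Mmp2, Fbn2 and Col9a2, with -1.46, -1.63 and -1.83 in Snf2hko and -1.16, -1.17 and -1.92 in Ino80ko.

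Tnc, a matricellular glycoprotein of embryonic mesenchyme and wounds, showed the largest rise of the set in Snf2hko. It read 0.183 and 0.259 CPM in wild type and 18.4 and 14.09 CPM in Snf2hko (6.16 ± 0.26, adjusted p = 6.64e-13, edgeR). In Ino80ko it had 2 counts over both libraries against 18 in wild type, a ratio of 0.113 (exact 95% interval 0.0127 to 0.473, counting error only). Fbln2, which links laminin to fibrillin, went from 1.07 and 1.49 to 24.6 and 17.7 CPM in Snf2hko (4.03 ± 0.21). Sparc (1.53 ± 0.07), Thbs1 (1.63 ± 0.08), Timp3 (1.66 ± 0.08), Mmp15 (2.23 ± 0.13), Mmp14 (1.39 ± 0.07) and 5 of 6 fibrillar collagens rose there too. In Ino80ko all 7 matricellular genes were lower, where 22.9% of all genes were: Thbs1 fell from 51.5 and 54.5 to 19.7 and 16.0 CPM (-1.57 ± 0.08), Vcan by -1.16 ± 0.08, Thbs3 by -0.73 ± 0.09 and Sparc by -0.40 ± 0.07. The call of Tnc among them was lost without wild-type replicate 4 or either Ino80ko library (adjusted p = 0.0534 to 0.0644).

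A second group rose in Ino80ko. Itgb4, the beta chain of the hemidesmosome receptor, read 11.2 and 12.9 CPM in wild type, 31.5 and 27.7 in Ino80ko and 11.6 and 12.6 in Snf2hko (1.29 ± 0.12 in Ino80ko and -0.01 ± 0.12 in Snf2hko, the latter with adjusted p = 0.964). Itga3, an epithelial laminin receptor chain, rose in Ino80ko by 0.87 ± 0.07 and read -0.05 ± 0.07 in Snf2hko. Mmp9 was higher in Ino80ko (1.22 ± 0.21) and lower in Snf2hko (-1.60 ± 0.26), and Mmp14 was higher in both (1.10 ± 0.07 and 1.39 ± 0.07).

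Genes of the same pathway outside the families were counted in the same way. In Snf2hko, of 26 collagen-processing genes tested 20 were higher and 1 lower, led by the collagen chaperone Serpinh1 (2.48 ± 0.08), the prolyl hydroxylase P4ha2 (2.16 ± 0.09) and the galactosyltransferase Colgalt1 (1.25 ± 0.07). Of the integrin adaptors 7 of 14 were higher and 1 lower, 57.1% called beside 56.5% of all genes. In Ino80ko 6 collagen-processing genes were higher and 8 lower, with Plod2, P4ha1 and P4ha2 at -1.63, -1.30 and -1.49. The endoderm markers moved the same ways: all 11 tested were higher in Snf2hko, with Srgn at 2.75 ± 0.07, Gata6 at 2.36 ± 0.08 and Amn at 3.81 ± 0.13, and 9 were lower and 0 higher in Ino80ko. Their sum was 285 to 290 CPM in wild type, 1890 to 1920 in Snf2hko and 132 to 144 in Ino80ko, and 4 of 9 stem cell markers were lower and 1 higher in Snf2hko. Summed mesenchyme markers read 53.8 to 60.3 CPM in wild type, 86.8 to 92.2 in Snf2hko (4 of 9 higher, 1 lower) and 39.9 to 40.5 in Ino80ko (2 higher, 3 lower). Endothelium markers read 134 to 141, 169 to 172 (6 of 8 higher, 1 lower) and 74.4 to 76.3 CPM (2 higher, 5 lower), and trophoblast markers 84.2 to 89.3, 38.5 to 39.9 (2 of 6 higher, 3 lower) and 24.2 to 24.3 CPM (0 higher, 3 lower). Their part in the matrix result was not tested. All 6 and all 9 genes called after the short washouts were called in the same direction in Snf2hko, 100% of either washout list and 10.9% and 16.4% of the 55 Snf2hko calls among genes tested in both batches. Over all genes called after these washouts, 66.1% (488 of 738) and 69.7% (347 of 498) were called in the same direction in Snf2hko.

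**Figure D4:**
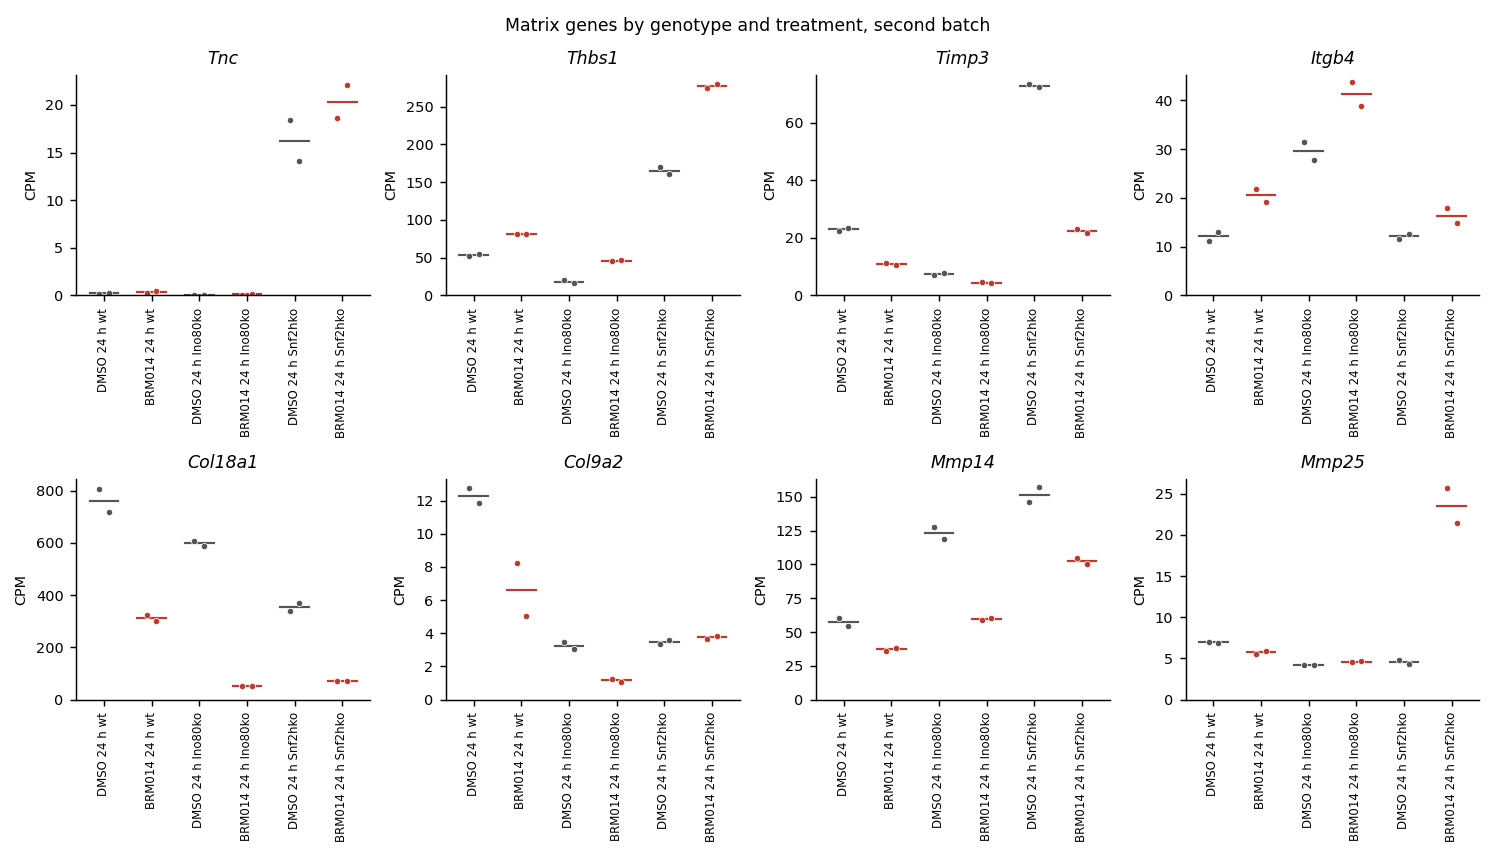
CPM (vertical axes, linear, from 0) of 8 genes in the 12 second-batch libraries (dots; bars are group means; grey vehicle, red BRM014). Tnc is at 14.09 CPM or more in Snf2hko libraries and under 1 CPM in the rest, and Col18a1 is lowest, at 53.1 and 51.5 CPM, in Ino80ko cells with BRM014.

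BRM014 was also given to both knockout lines. It raised 15 and lowered 30 of 78 genes in Ino80ko (44.5% of all genes) and raised 21 and lowered 31 in Snf2hko (56.9%). Itgb1 rose by 1.19 ± 0.06 and 1.13 ± 0.06, Fbn2 by 1.88 ± 0.20 and 3.07 ± 0.20, and Mmp28 fell by -2.18 ± 0.17 and -1.87 ± 0.17. The test of the difference from wild type (the interaction) called 5 genes up and 17 down for Ino80ko, beside 9.03% of all genes, and 13 up and 17 down for Snf2hko, beside 32.6%. The count for Ino80ko was 14 without Ino80ko vehicle replicate 1 or without wild-type BRM014 replicate 3. Smarca2, a target of BRM014, itself differed between the lines. With vehicle it read 10.7 and 11.2 CPM in wild type, 4.31 and 4.42 in Ino80ko and 46.9 and 45.2 in Snf2hko. Smarca4, the other target, is listed at 0 in every library. What part the targets have in the interactions was not tested.

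Col18a1 fell further in both lines than in wild type. It read 606 and 589.9 CPM with vehicle and 53.1 and 51.5 with BRM014 in Ino80ko, and 339 and 369.6 then 70.1 and 69.3 in Snf2hko (-3.52 ± 0.08 and -2.34 ± 0.08). The interactions were -2.23 ± 0.10 and -1.05 ± 0.10 (adjusted p = 1.49e-10 and 3.01e-07, edgeR). Mmp25, which read 6.94 and 6.93 CPM with vehicle and 5.58 and 5.96 with BRM014 in wild type of this batch (-0.27 ± 0.14, not called) and rose in wild type of the first batch (0.88 ± 0.15), rose from 4.82 and 4.37 to 25.7 and 21.4 CPM in Snf2hko (interaction 2.64 ± 0.18, adjusted p = 7.89e-09, edgeR). Itga9 fell in Snf2hko from 29.8 and 28.0 to 7.89 and 9.62 CPM and rose in Ino80ko from 41.4 and 39.9 to 55.9 and 52.3 CPM (interactions -1.92 ± 0.14 and 0.20 ± 0.14, the latter not called). Lama1 fell with BRM014 in Ino80ko (-0.42 ± 0.08) and rose in Snf2hko (0.56 ± 0.08), where it reached 8439 and 7554 CPM (interactions -0.95 ± 0.12 and 0.02 ± 0.12, the latter not called). By these interactions Lama1 rose in wild type of this batch about as much as in Snf2hko. Thbs2 rose by 3.40 ± 0.28 in Ino80ko, to 4.92 and 5.01 CPM, and by 1.02 ± 0.25 in Snf2hko, to 2.03 and 2.59 CPM (Snf2hko interaction -1.57 ± 0.34). Summed endoderm markers went from 132 to 144 CPM with vehicle to 98.4 to 98.8 with BRM014 in Ino80ko (1 of 11 higher, 5 lower) and from 1890 to 1920 to 2140 to 2420 in Snf2hko (5 higher, 3 lower). Mesenchyme markers went from 39.9 to 40.5 to 18.0 to 19.0 CPM (0 of 9 higher, 4 lower) and from 86.8 to 92.2 to 52.9 to 62.8 CPM (3 higher, 4 lower), and endothelium markers from 74.4 to 76.3 to 30.4 to 32.3 CPM (2 of 8 higher, 4 lower) and from 169 to 172 to 89.6 to 92.7 CPM (0 higher, 6 lower). What part these markers have in the result was not tested.

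Neighbouring members did not always move together. Col6a6, Col6a5 and Col6a4, chains of type VI collagen, lie in a row on the minus strand of chromosome 9 (105687809 to 106096783 in GRCm38), with gaps of 27918 and 28811 bases. Under 24 h of BRM014 Col6a5 fell from 7.93, 6.80, 7.33 and 8.27 to 1.89, 2.95, 2.18 and 1.41 CPM and Col6a4 by -1.11 ± 0.17, while Col6a6 rose by 0.89 ± 0.21 (adjusted p = 0.00218, edgeR), from 1.86, 1.14, 1.70 and 1.63 to 3.09, 3.61, 2.28 and 3.10 CPM. Treated libraries of Col6a6 all lay above the vehicle libraries. Col6a4 and Col6a5 were also lower in Snf2hko (-1.71 ± 0.22 and -1.74 ± 0.18). On chromosome 11, Col1a1 and Itga3 lie 91432 bases apart on opposite strands, and both fell with BRM014 at 24 h in wild type.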

How the data were processed

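Total RNA was made into 38 libraries with a stranded kit, per the labels. The authors deposited raw read counts per gene, 1 column per library, and all 38 count columns were matched to samples by title, with 0 unmatched. The submitters' processing notes name bcl2fastq 2.17, STAR and the GRCm38 (mm10) genome. For the counting program, its annotation and its strand setting the answer is "not given in the sources used here".

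Genes were filtered with edgeR's filterByExpr (minimum count 10, minimum total 15), scaled by TMM and tested with edgeR 4.0.16 (R 4.3.3, limma 3.58.1) by the quasi-likelihood F test, with Benjamini-Hochberg adjustment over all genes tested and a threshold of 0.05. Separate fits covered the 24 h wild-type groups, adjusted for batch (11787 genes), all first-batch groups (12517 genes) and all second-batch groups (13130 genes). BRM014 at 3 h and 6 h was compared with the mean of vehicle at 1 h and 24 h. The steps were tested on simulated data. Alternatives were DESeq2 1.42.0, its size factors in edgeR, no filter on low counts, a replicate block, fits of the compared groups alone and leaving out each library. For the short washouts, vehicle for 1 h as the reference was added after seeing the data, as was the replicate block for the interactions.

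Every family gene could be named. Values per library are given for Col4a2, Lamb1, Thbs2, Tnc, Fbn2 and Mmp2 and for up to 6 called rises and 6 called falls per main comparison with a mean log2 CPM of at least 1. Other genes with values per library were chosen after their values were seen. Outside the families up to 3 called genes of a list, those with the smallest adjusted p, are named. Results for 1 gene that the rule names are not reported here, though counts include it. Members and lists were chosen with earlier results of these data known. Intervals and floors on counts cover counting error only.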

Additional observations from a re-analysis of the deposited data

Results flagged for a closer look

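Among 35 genes checked in 70 groups of 4 libraries, 3 single libraries stood apart, where chance gives about 1 in 20 groups. Col13a1 read 17.6 CPM in wild-type vehicle replicate 1 at 24 h against 13.5 to 14.09 CPM in the other 3. Col8a2 read 1.31 CPM in wild-type BRM014 replicate 4 at 24 h against 2.18 to 2.19 CPM. Mmp24 read 0.82 CPM in wild-type BRM014 replicate 3 at 24 h against 1.501 to 1.57 CPM.

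The effect of BRM014 at 24 h differed between genotypes by the interaction test in edgeR (log2, line minus wild type, 2 libraries a group; adjusted p from 1.49e-10 to 0.0421 in Ino80ko and from 7.89e-09 to 0.0358 in Snf2hko). In Ino80ko it was lower for Col18a1 (-2.23), Col5a3 (-1.66), Col9a3 (-1.53), Mmp2 (-1.35), Col8a2 (-1.12), Mmp15 (-1.03), Lama1 (-0.95), Lamb2 (-0.67), Mmp11 (-0.55), Mmp14 (-0.40) and Itga3 (-0.34), and higher for Col1a1 (1.60), Thbs1 (0.75) and Itgb5 (0.39). In Snf2hko it was lower for Thbs2 (-1.57), Col9a3 (-1.32), Col18a1 (-1.05), Mmp11 (-0.78), Lamb2 (-0.76), Itgb5 (-0.67), Timp3 (-0.61) and Mmp15 (-0.58), and higher for Mmp25 (2.64), Col1a1 (1.97), Col6a5 (1.45), Col12a1 (1.08), Fbn2 (1.07) and Col9a2 (0.97).

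In wild type the 24 h effect also differed between the batches (log2, second minus first, edgeR, adjusted p from 0.00335 to 0.045) for Thbs2 (-2.49), Mmp25 (-1.13), Col13a1 (-0.82), Itga3 (-0.50), Lama1 (0.64) and Lamb1 (0.53).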

How the results depend on the processing

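Of 85 named results past the threshold, 0 turned direction in 838 alternative values, and 36 values of 10 results missed the threshold. Counts of called family genes moved by more than 1.5 times in the following cases, and the cause was not tested. BRM014 at 1 h called 1 gene, 0 to 1 on leaving out a library, 2 with the replicate block and 0 with only the compared groups fitted. BRM014 at 3 h called 26, and 14 to 25 on leaving out a library. Vehicle 24 h against 1 h called 14, 6 to 18 on leaving out a library and 7 with only the compared groups fitted. The analog at 24 h called 20, 11 to 20 on leaving out a library and 10 with only the compared groups fitted. Washout 24 h against vehicle called 22, 13 to 21 on leaving out a library and 8 with only the compared groups fitted. Washout 1 h called 9, and 16 against vehicle for 1 h, an alternative chosen after seeing the data. The Ino80ko interaction called 22 and the batch interaction 10, and on leaving out a library 14 to 22 and 2 to 12.

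Leaving out 1 library turned the sign of 3 values that were not called. Tnc at 24 h in both batches ranged from -0.30 to 0.25, with 0.21 and 0.03 also above 0. Col4a2 in washout 24 h against BRM014 24 h ranged from -0.21 to 0.0107, with another value just above 0. It was called without BRM014 replicate 1 or washout replicate 1 (adjusted p = 0.0355 and 0.0359, edgeR). Thbs2 in Snf2hko against wild type ranged from -0.75, called without wild-type vehicle replicate 4 (adjusted p = 0.0243, edgeR), to 0.11.

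Same-numbered libraries of different groups did not consistently deviate together, though some pairs of groups did. The correlation of their deviations from group means ran from -0.279 to 0.338 over 78 pairs of groups in the first batch, 13 of them above 0.1, and from -0.242 to 0.293 over 15 in the second, 4 above 0.1. With the replicate block 43 genes were called at 24 h in both batches against 45, and the 1 h count alone moved by over 1.5 times. With the replicate block nested in genotype or batch, added after seeing the data, the interactions with BRM014 called 26 genes for Ino80ko, 34 for Snf2hko and 11 for batch against 22, 30 and 10. For the genotype comparisons with vehicle no paired analysis was possible because wild-type and knockout libraries share no replicate numbers. Tnc in cells other than Snf2hko, under 1 CPM, is limited by depth.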

Other observations

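Values are log2 changes with SE, and the calls are edgeR's at an adjusted p under 0.05. The counts below stand beside 49.6% of all genes called under 24 h of BRM014 in wild type (both batches). With vehicle 56.5% of all genes were called in Snf2hko and 45% in Ino80ko. Under 24 h of BRM014 in wild type, 12 of 29 other matrix and proteoglycan genes were higher and 9 lower, with Matn2 at 1.33 ± 0.14, Efemp2 at 1.13 ± 0.13 and Tgfbi, a collagen-binding protein, at -1.44 ± 0.10 (adjusted p = 6.43e-07, 1.98e-06 and 3.05e-09, edgeR). Of 12 other proteases and inhibitors 4 were higher and 5 lower, among them the serine protease Htra1 (-2.02 ± 0.08) and the Adamts proteases Adamts15 (1.94 ± 0.13) and Adamts1 (0.99 ± 0.10). Of 14 integrin adaptors 3 were higher and 6 lower, with Lims2 at -2.95 ± 0.26, Parvb at -1.06 ± 0.09 and Flna at -0.62 ± 0.06. Of 25 collagen-processing genes 8 were higher and 9 lower, with Pcolce2 at -1.67 ± 0.11.

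In Snf2hko with vehicle Htra1 (2.36 ± 0.08), the urokinase receptor Plaur (1.67 ± 0.07) and the protease inhibitor Serpine2 (1.64 ± 0.09) rose, with 8 of 13 of that list higher and 1 lower. Of 33 other matrix genes 17 were higher and 9 lower there, with Sdc4 at 1.18 ± 0.07, Gpc6 at 2.02 ± 0.15 and Frem2 at -2.03 ± 0.11. In Ino80ko the integrin adaptors Lims2 (2.95 ± 0.16), Parvb (1.31 ± 0.10) and Tns3 (1.09 ± 0.10) rose, with 7 of 14 adaptors higher and 2 lower. The matricellular genes Ccn1 (-1.27 ± 0.06) and Ccn2 (-1.26 ± 0.08) and Frem2 (-1.89 ± 0.11) fell there, with 9 of 33 other matrix genes higher and 13 lower. Of 13 other proteases and inhibitors 2 were higher and 8 lower, with Adamts1 at -1.92 ± 0.10, Adamts9 at -1.65 ± 0.09 and Plaur at 1.10 ± 0.07.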
